A study of Mus musculus with 7 samples.

Results

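Of the 31131 genes with a probe on the arrays, 10 classic immediate early genes were followed here, namely Fos, Fosb, Fosl2, Jun, Junb, Jund, Egr1, Ier2, Btg2 and Myc. They were chosen by name, as the genes whose gene symbol, in the array annotation or through a RefSeq accession, is 1 of these 10. This gave 11 of the 39429 probes that are not controls, 2 for Fosl2 and 1 for each of the others. All 10 genes were among the 16553 genes tested. RNA was taken from the quadriceps of 3-month-old C57BL/6 mice, with 1 single-dye Agilent array per mouse, 4 arrays labelled WT and 3 labelled AR113Q. AR113Q mice are a knock-in model of spinal and bulbar muscular atrophy (SBMA), a disease caused by an expanded glutamine tract, and at this age they had not yet developed motor dysfunction. The humanized allele with the expanded repeat is expressed from the endogenous locus, so it is active in every cell that uses that gene and not in muscle alone. The study's text describes the controls as carrying a humanized allele with a short repeat, while the labels give WT, and the labels are followed here. The study reports the use of male mice.

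Immediate early genes are transcribed within minutes of a stimulus, such as a growth factor, calcium entry, contraction or stress, without new protein synthesis. Signals through MAP kinases and calcium act on factors already bound at their promoters, such as SRF with its TCF and MRTF partners, and CREB, and the messenger RNAs are short-lived. Fos and Jun proteins pair to form the transcription factor AP-1, Egr1 is a zinc finger factor, Myc pairs with Max to drive ribosome and growth genes, Btg2 is an antiproliferative cofactor of the mRNA deadenylation machinery that p53 also induces, and Ier2 is a small nuclear protein. In resting muscle several of them are low, and they respond quickly to exercise, injury and handling of the tissue.

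On each array 47.6% to 55.8% of probes were well above background and 0 spots were saturated. The levels below are log2 intensities, background-subtracted by the scanner software and quantile normalized here, and each sentence on a gene compares the same probe between arrays, since different probes bind with different strength. A differentially expressed gene (DEG) had to pass 2 thresholds, an adjusted p of 0.05 in limma (Benjamini-Hochberg, over all genes tested) and a log2 fold change of 1 in either direction. The 8 muscle fiber markers were well above background on all 7 arrays, with a summed signal of 905140 to 1058780 on the WT arrays and 760990 to 862970 on the AR113Q arrays. Slide 2 was the only 1 of 5 slides with both genotypes, namely WT replicate 2 and AR113Q replicate 1. In whole muscle, a change in the amount of RNA per cell and a change in the number of cells of a type cannot be told apart.

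Of the 10 genes, 5 were DEGs and all 5 were upregulated in AR113Q muscle, namely Junb, Btg2, Fosl2, Ier2 and Myc. Among all genes tested 24.3% were DEGs, 11.2% higher and 13.1% lower in AR113Q. Junb entered the test through the AR113Q arrays, since only 1 WT array was well above background, and of the 9 genes well above background on all 7 arrays 4 were DEGs, beside 21.6% of all genes that met this stricter filter. The count changed with the processing. It was 3 of 10 with normexp correction (10.6% of all genes) and with the mean intensity without subtraction (11.5%), namely Fosl2, Junb and Btg2, and 2 of 9, Fosl2 and Btg2, in the authors' normalized values (9.17%). Fixing slide in the model left 0 genes called by limma. That fit sets the genotypes against each other only within slide 2, by 1 array each. For each gene its spread rests on WT replicates 3 and 4, which share slide 4, so it cannot decide for or against the calls. Without the fold change threshold, 6 of the 10 passed, 5 of them higher and 1, Fosb, lower, beside 43.6% of all genes (21.0% higher, 22.6% lower). The 2 genotypes did not overlap for the same 6 genes, beside 49.4% of all genes (24.2% with AR113Q higher, 25.1% lower). The median log2 fold change of the 10 genes was 1.12, beside -0.01 over all genes tested. Fos, Jun, Jund and Egr1 did not pass the test, and the log2 fold changes of the 10 genes ran from -0.9996 to 3.86. The plot of the 10 genes by array shows the spread behind these values.

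**Figure D1:**
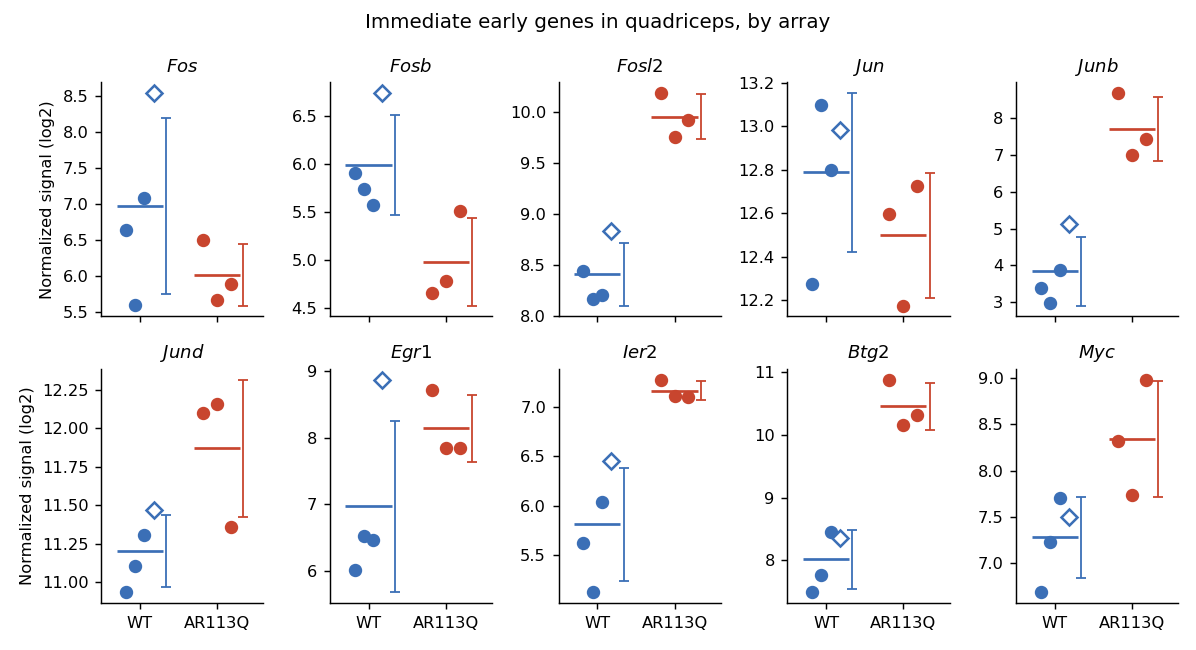
Normalized signal (log2) of the 10 immediate early genes, with 1 panel and 1 scale per gene, for the 4 WT (blue) and 3 AR113Q (red) arrays; points are arrays, lines are means, bars at the side are ± 1 SD and the open diamond is WT replicate 4. All AR113Q points lie above all WT points for Fosl2, Junb, Ier2, Btg2 and Myc and below them for Fosb, and WT replicate 4 is the highest WT array in 7 of 10 panels.

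Among the Jun genes, whose products pair with each other and with Fos proteins in AP-1, Junb was higher in AR113Q, and Jun and Jund did not pass the test. The Junb probe (mm9, chromosome 8, 87501881 to 87501940, minus strand) gave normalized log2 signals of 3.38, 2.98, 3.89 and 5.13 on WT arrays 1 to 4 and 8.69, 6.99 and 7.44 on AR113Q arrays 1 to 3. Before normalization, the intensities were 7.92, 9.68, 13.7 and 32.2 in WT and 496, 167 and 199 in AR113Q. Every AR113Q array was above every WT array. Of the WT arrays, only replicate 4 was well above background, so that the low level in the others was barely measured. The mean was 3.84 ± 0.93 (SD, n = 4) over the WT arrays and 7.71 ± 0.88 (SD, n = 3) over the AR113Q arrays, a log2 fold change of 3.86 (standard error, SE, 0.56, limma adjusted p = 0.00128). The detection limit was taken as the lowest signal that was well above background on an array. With it in place of the 3 WT values below it, the means differed by 3.60. Other probes above this limit were not always well above background, so 3.60 is no firm lower bound. The size depends on how the background of a dim probe is treated, since the log2 fold change was 1.39 with normexp background correction and 1.43 on the mean spot intensity without subtraction.

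Jun itself was bright on every array and was not a DEG. On chromosome 4 (mm9, 94716928 to 94716987, minus strand), its probe read 12.27, 13.10, 12.80 and 12.98 on the WT arrays and 12.60, 12.18 and 12.73 on the AR113Q arrays. The ranges overlapped, and the log2 fold change was -0.29 (95% interval -0.84 to 0.26, adjusted p = 0.357 in limma). Jund, the member of the trio that is usually expressed without a stimulus, was read on chromosome 8 (mm9, 73224436 to 73224495). It gave 10.93, 11.11, 11.31 and 11.47 in WT and 12.10, 12.15 and 11.36 in AR113Q. AR113Q replicates 1 and 2 lay above all WT arrays, while replicate 3 lay within their range. The log2 fold change of Jund was 0.66 (SE 0.24, limma adjusted p = 0.0519), which just missed the threshold. The adjusted p was within it in 5 of 20 alternatives, among them the fit without AR113Q replicate 3 (0.92, 0.00807), but Jund was a DEG in none, since its log2 fold change stayed below 1.

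Within the Fos family, Fosl2 was higher in AR113Q, Fosb was lower and Fos did not pass the test. Fosl2 encodes Fra-2, a longer-lived member of the family without a strong activation domain. Its kept probe (mm9, chromosome 5, 32460076 to 32460135) read 8.44, 8.17, 8.20 and 8.83 in WT and 10.18, 9.76 and 9.92 in AR113Q. The 3 AR113Q arrays lay together above the WT arrays, with a log2 fold change of 1.54 (SE 0.21, limma adjusted p = 0.000955), or 2.91-fold. The other Fosl2 probe starts 4988 bases away (32455088 to 32455147) and was too dim to be tested. Its intensities were 2.79, 2.26, 3.24 and 3.08 on the WT arrays, none of them well above background, and 34.4, 28.9 and 12.3 on the AR113Q arrays, of which the first pair were well above background. No fold is given for this probe, since AR113Q replicate 3 was not well above background either.

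Fosb, which is known for a truncated, stable form that builds up with repeated stimulation, was lower in AR113Q muscle. The probe (mm9, chromosome 7, 19888168 to 19888227, minus strand) read 5.90, 5.74, 5.57 and 6.73 in WT and 4.66, 4.79 and 5.51 in AR113Q. The groups did not overlap, although AR113Q replicate 3 came close to the lowest WT array. Its log2 fold change was -0.9996 (SE 0.32, limma adjusted p = 0.0361), which falls just short of the fold change threshold, so that Fosb was not a DEG. The adjusted p was above 0.05 in 11 of 20 alternatives, among them normexp correction (0.0597), the authors' values (-0.24, 0.106), no filter (0.0864) and 5 fits that each left out an array. Those arrays were replicates 1, 2 and 4 of WT, with adjusted p of 0.0665, 0.0515 and 0.0573, and replicates 1 and 2 of AR113Q, with 0.119 and 0.106 in limma. Without WT replicate 3 (-1.14, 0.0344) or AR113Q replicate 3 (-1.26, 0.0188), Fosb was a DEG.

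Fos, the founding member of the family and the one most used as a mark of recent activation, was read by 10 spots of 1 probe (mm9, chromosome 12, 86817900 to 86817959). The normalized signal was 6.64, 5.60, 7.09 and 8.54 in WT and 6.50, 5.66 and 5.89 in AR113Q. WT replicate 4 stood above all other arrays, and its 10 spots ranged from 297 to 362 before normalization, while the brightest spot on any other array was at 155. Fos was not a DEG, with a log2 fold change of -0.95 (95% interval -2.34 to 0.43, adjusted p = 0.234 in limma). It was -0.43 without WT replicate 4, and 0.90 within slide 2, where the sign was the opposite.

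The differences between family members were tested within arrays. For 6 pairs, the signal of 1 gene minus that of another was compared between genotypes with a two-sided exact permutation test, which in 4 against 3 arrays cannot give a p below 0.0571. The log2 fold change of Fosl2 exceeded that of Fosb by 2.54 (SE 0.34) and that of Fos by 2.50 (0.50). The log2 fold change of Junb exceeded that of Jun by 4.15 (0.64) and that of Jund by 3.20 (0.64). In each of these 4 pairs the genotypes did not overlap and p was the smallest possible, 0.0571, or 0.0857 after adjustment over the 6 pairs. The differences with Junb rest on a WT level that was barely measured. Junb also passed the filter only through the AR113Q arrays, where it is high, so the p-values of its pairs are no support. With normexp correction Junb exceeded Jun by 1.74 and Jund by 0.79, and Fosl2 exceeded Fos by 1.70 and Fosb by 1.58. Jund exceeded Jun by 0.95 (0.42), with an exact p of 0.114, and Fosb and Fos differed by -0.05 (0.61), with an exact p of 0.971.

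Btg2 had the lowest adjusted p of the 10 genes. On chromosome 1 (mm9, 135972094 to 135972153, minus strand), its probe read 7.49, 7.76, 8.46 and 8.36 in WT and 10.88, 10.16 and 10.32 in AR113Q. The mean was 8.02 ± 0.47 (SD, n = 4) over the WT arrays and 10.45 ± 0.38 (SD, n = 3) over the AR113Q arrays. The log2 fold change was 2.44 (SE 0.29, limma adjusted p = 0.000583), or 5.42-fold, and it stayed between 1.97 and 3.12 in every alternative tried. Ier2, whose probe lies on chromosome 8 (mm9, 87186214 to 87186273, minus strand), gave 5.62, 5.12, 6.04 and 6.46 in WT and 7.28, 7.12 and 7.10 in AR113Q. The AR113Q arrays were nearly level with each other and above all WT arrays, with a log2 fold change of 1.36 (SE 0.30, limma adjusted p = 0.00756). Ier2 was not a DEG in 4 alternatives. Its log2 fold change was 0.70 with normexp correction, 0.73 with the mean intensity without subtraction and 0.50 in the authors' normalized values, all under the fold change threshold, while fixing slide in the model gave 2.16 (limma adjusted p = 0.0573).

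Myc passed both thresholds by a small margin. Its probe on chromosome 15 (mm9, 61821417 to 61821476) read 6.68, 7.22, 7.70 and 7.50 in WT and 8.32, 7.73 and 8.99 in AR113Q. The groups did not overlap, but AR113Q replicate 2 was only just above WT replicate 3. The log2 fold change was 1.07 (SE 0.34, limma adjusted p = 0.0342), and Myc was no longer a DEG in 11 of 20 alternatives. Among them were the fits without WT replicate 1 (0.87, adjusted p = 0.0771), 2 (1.05, 0.0716) or 4 (1.14, 0.0507) and without AR113Q replicate 1 (1.08, 0.0813) or 3 (0.75, 0.0929).

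The result for Egr1 turned on WT replicate 4. It read 6.02, 6.52, 6.47 and 8.87 in WT and 8.72, 7.85 and 7.84 in AR113Q. The 3 AR113Q arrays lay above WT replicates 1 to 3, while WT replicate 4 was the highest of all 7 arrays. With all arrays the log2 fold change was 1.17 (95% interval -0.30 to 2.64, adjusted p = 0.173 in limma), and Egr1 was not a DEG. Without WT replicate 4 it was 1.80 (adjusted p = 0.00401), and Egr1 passed both thresholds.

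**Figure D2:**
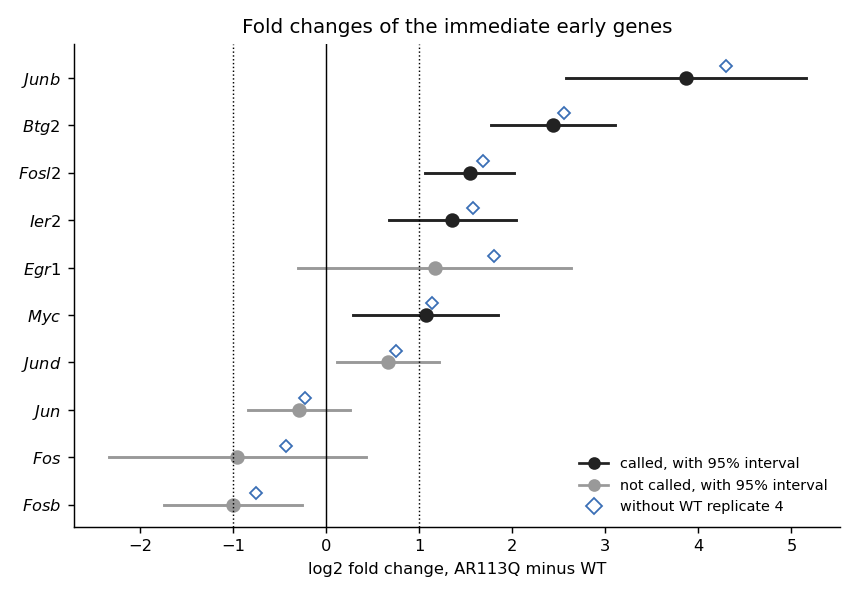
Log2 fold change (AR113Q minus WT) of each immediate early gene with its 95% interval from limma; black marks the 5 DEGs, grey the others, dotted lines the fold change threshold of 1, and open diamonds the value without WT replicate 4. The intervals of Egr1, Jun and Fos reach across 0, and leaving out WT replicate 4 raises the value of all 10 genes.

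WT replicate 4 was the highest WT array for 7 of the 10 genes (Fos, Fosb, Fosl2, Junb, Jund, Egr1 and Ier2). For 14 of the 40 other immediate early genes tested (35%) and for 24.0% of all genes it was also the highest WT array. It exceeded the median of the other WT arrays by 2.40 for Egr1, 1.90 for Fos, 1.75 for Junb, 0.999 for Fosb and 0.83 for Ier2 on the log2 scale. The same array stood apart in blood cell markers. S100a8, an abundant neutrophil transcript, read 4.37, 5.02, 4.33 and 10.21 on the WT arrays and 9.52, 8.58 and 9.92 on the AR113Q arrays. S100a9 read 7.21, 7.48, 6.43 and 12.93 in WT and 8.43, 10.50 and 10.54 in AR113Q. These genes, and Retnlg and the hemoglobin genes in the map of deviations, were picked from the marker lists after their values were seen.

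Over the 6 neutrophil markers measured, the summed signal was 8955 to 17415 in WT and 10204 to 14502 in AR113Q, and most of it on the other WT arrays came from Csf3r, which differed little between genotypes. None of the 6 was a DEG with all arrays, with log2 fold changes from 0.03 to 3.36. Without WT replicate 4 the log2 fold change was 4.77 for S100a8 and 2.78 for S100a9. That array was the highest of all 7 for these genes, so a test without it cannot decide whether they differ between genotypes. Cxcr2 and Mmp8 were well above background on none of WT replicates 1 to 3, so that their levels there are only bounds. The summed signal of 5 erythrocyte markers was 214212 on WT replicate 4 and 120818 on WT replicate 3, against 44412 and 45106 on the other WT arrays and 45188 to 57717 in AR113Q. The part of neutrophils or blood in the immediate early gene levels was not tested.

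**Figure D3:**
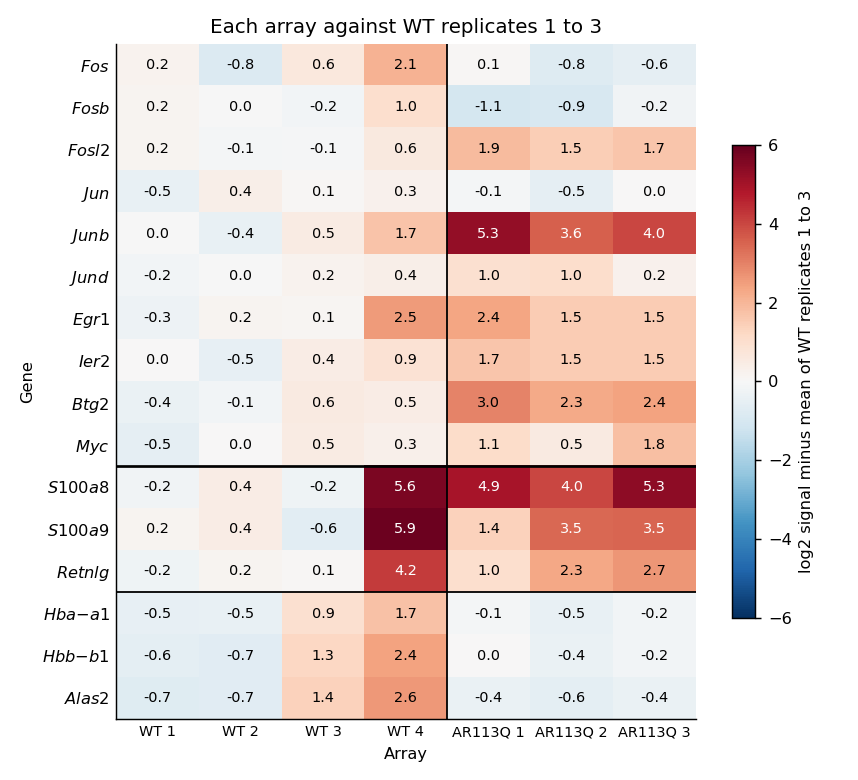
Log2 signal of each gene on each of the 7 arrays minus the mean of WT replicates 1 to 3, for the 10 immediate early genes (top), 3 neutrophil genes (middle) and 3 erythrocyte genes (bottom); red is higher and blue is lower. Egr1 is 2.5 higher on WT replicate 4 and 1.5 to 2.4 higher on the AR113Q arrays, while Btg2 is 0.5 higher on WT replicate 4 and 2.3 to 3.0 higher on the AR113Q arrays.

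Other marker counts are read beside the 24.3% of all genes that were DEGs. Of 8 muscle fiber markers 1 was a DEG, lower in AR113Q, with log2 fold changes from -1.37 to 0.27. Of 7 fibroblast markers 4 were DEGs, all lower in AR113Q, and so were 4 of 6 adipocyte markers. Of 8 macrophage markers, 1 was higher and 3 were lower. The summed signal was 104440 to 127571 in WT and 75450 to 106379 in AR113Q for fibroblasts, 33368 to 49082 and 28679 to 29185 for adipocytes, and 7442 to 12428 and 5757 to 7255 for macrophages. Endothelial (1 of 7), smooth muscle (1 of 7) and Schwann cell lists (1 of 5) each had 1 DEG, which was lower in AR113Q. Of the satellite cell markers 2 of 4 tested were DEGs and of the lymphocyte markers 2 of 3 tested, also lower. In these lists Myf5 and Ms4a1 were too dim on all 7 arrays, and Cd3g and Cd79a were too dim to be tested. The summed signals were 5670 to 6972 against 3728 to 5411 for endothelial cells, 13693 to 15315 against 8157 to 13478 for smooth muscle and pericytes, 1240 to 3266 against 838 to 1129 for Schwann cells, 1139 to 1590 against 886 to 1376 for satellite cells, and 200.4 to 248 against 177 to 215 for lymphocytes. Their part in the levels of the 10 genes was not tested.

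Within slide 2, AR113Q replicate 1 minus WT replicate 2 had the sign of the fit for 9 of the 10 genes. The difference was 5.71 for Junb, 3.12 for Btg2, 2.20 for Egr1, 2.16 for Ier2, 2.02 for Fosl2, 1.10 for Myc, 0.99 for Jund, -0.50 for Jun and -1.07 for Fosb on the log2 scale. Fos was the exception, as given above. AR113Q replicate 1 was the highest AR113Q array for 6 of the 10 genes and WT replicate 2 the lowest WT array for 4. This is 1 pair of arrays with no replicate check.

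The promoters of 3 genes that rose and of Fosb, whose fold change was negative, are shown to set side by side what lies upstream of genes whose fold changes had opposite signs. The table of RefSeq promoters used here (GRCm38.p6) was matched for 7 of the 10 genes. For the 4 shown, the 250 bases before the annotated start are printed 5′ to 3′ along the gene. Capitals mark matches to a CRE (TGACGTCA, bound by CREB and ATF factors) or an EGR site (GCGNGGGCG), searched on both strands. The windows are chr1:134079156-134079405 (minus strand) for Btg2, chr5:32136222-32136471 (plus strand) for Fosl2, chr8:84978749-84978998 (minus strand) for Junb and chr7:19310046-19310295 (minus strand) for Fosb.
Btg2: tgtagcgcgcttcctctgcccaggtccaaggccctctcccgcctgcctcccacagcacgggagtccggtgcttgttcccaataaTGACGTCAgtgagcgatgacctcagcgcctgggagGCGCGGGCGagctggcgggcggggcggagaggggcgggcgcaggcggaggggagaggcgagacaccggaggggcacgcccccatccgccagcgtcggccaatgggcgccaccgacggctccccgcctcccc
Fosl2: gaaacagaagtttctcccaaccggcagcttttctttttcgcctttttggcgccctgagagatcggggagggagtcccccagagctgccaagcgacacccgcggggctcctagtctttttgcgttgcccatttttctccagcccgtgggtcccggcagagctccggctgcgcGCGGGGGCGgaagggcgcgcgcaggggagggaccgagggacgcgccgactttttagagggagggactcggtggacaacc
Junb: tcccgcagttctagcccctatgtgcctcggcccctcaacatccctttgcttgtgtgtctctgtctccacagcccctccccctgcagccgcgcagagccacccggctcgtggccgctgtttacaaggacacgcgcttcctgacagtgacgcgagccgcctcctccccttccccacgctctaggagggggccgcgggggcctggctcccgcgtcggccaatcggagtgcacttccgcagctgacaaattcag
Fosb: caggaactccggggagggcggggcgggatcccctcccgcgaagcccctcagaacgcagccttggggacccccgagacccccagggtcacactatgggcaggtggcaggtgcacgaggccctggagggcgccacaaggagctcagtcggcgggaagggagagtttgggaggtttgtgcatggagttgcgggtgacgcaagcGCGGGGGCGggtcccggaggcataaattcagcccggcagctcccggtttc

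Of the 7 promoters, searched from 250 bases before to 50 after the start, that of Btg2 alone held a CRE, at -166 to -159, which 1.79% of all 32851 promoters hold. An EGR site was found in Btg2 (-131 to -123), Fosl2 (-79 to -71) and Fosb (-50 to -42), and in 5.55% of all promoters. A TATA motif (TATAAA), found in 13.6% of all promoters, was present in Fos at -33 to -28 and in Junb at the annotated start. None of the 7 held an AP-1 site (TGANTCA, 7.81% of all promoters), a CArG box (1.63%), which is the site of SRF, or an E-box (CACGTG, 7.15%) in this window. The EGR motif occurred in 2 genes that were higher and in 1 that was lower in AR113Q, and a match describes the letters and not a bound site.

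Other genes of the immediate early response were read from a list of 46, all on the array, of which 40 were tested and 6 were too dim. Among the 40, 15 were DEGs higher in AR113Q and 7 were DEGs lower (55.0%), beside 11.2% higher, 13.1% lower and 24.3% in all over the genes tested. Their median was 0.84 on the log2 scale, beside -0.01 for all genes. Maff, a small Maf factor, rose most, by 4.28 (SE 0.37), from 5.92 ± 0.72 (SD, n = 4) to 10.19 ± 0.24 (SD, n = 3). Ppp1r15a (Gadd34), which brings phosphatase 1 to eIF2α in the stress response, rose by 3.74 (SE 0.29), and Csrnp1, a nuclear protein rich in cysteine and serine, rose by 2.93 (SE 0.36). Homer1, a scaffold at calcium channels, had the largest decrease (-2.28, SE 0.19). Nr4a1 (Nur77), an orphan nuclear receptor induced by contraction, fell from 15.07 ± 0.53 (n = 4) to 12.85 ± 0.84 (n = 3), a log2 fold change of -2.22, and Arc, a cytoskeletal protein of activated neurons, changed by -1.77 (SE 0.42). The adjusted p in limma was 0.000183, 0.000136, 0.000667, 0.000176, 0.00412 and 0.0111 in that order.

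**Figure D4:**
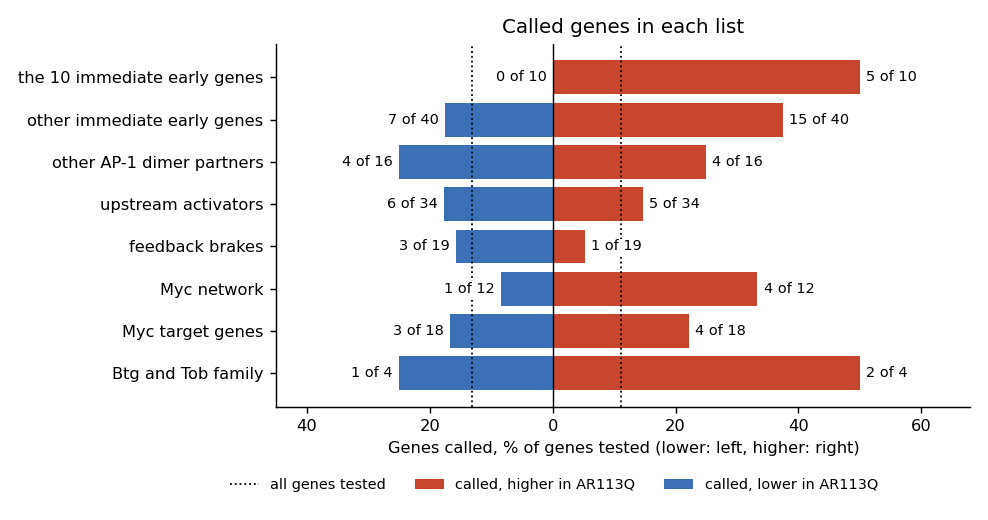
Share of tested genes that were DEGs (%), higher in AR113Q (red, right) or lower (blue, left), for the 10 immediate early genes and each list, with counts beside the bars; dotted lines are the shares over all genes tested (11.2% higher, 13.1% lower). The 10 genes had 5 higher and 0 lower, the other immediate early genes 15 and 7 of 40, and the feedback brakes 1 and 3 of 19. Some lists share genes, such as Dusp6.

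Among 16 tested bZIP factors that can pair with Fos or Jun proteins, 4 were higher and 4 were lower (50% DEGs, median 0.29), beside 24.3% of all genes. With the authors' values 5 were called, beside 9.17% of all genes. The small Maf factors Maff (4.28) and Mafk (3.53, SE 0.20, adjusted p = 5.02e-05 in limma) and the stress factor Atf3 (1.94, SE 0.31) rose on the log2 scale. The large Maf factor Maf (-2.37, SE 0.22) fell, as did Batf2 (-1.59, SE 0.15). Maff and Atf3 are also in the list of other immediate early genes, as Fosl1 is, so these lists are not separate evidence.

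The signalling genes upstream were split. Of 34 tested activators 5 were higher and 6 were lower (32.4% DEGs, median 0.00), beside 24.3% of all genes. With normexp correction, the mean intensity without subtraction and the authors' values, 7, 7 and 5 activators were called, beside 10.6%, 11.5% and 9.17% of all genes. Elk4, a TCF partner of SRF, rose by 1.55 (SE 0.23), and the CREB coactivators Crtc3 and Crtc2 rose by 1.26 and 1.21 on the log2 scale. Camk2a, a calcium-dependent kinase, had the largest decrease (-3.97, SE 0.27), from 9.49 ± 0.19 (n = 4) to 5.52 ± 0.58 (n = 3), with an adjusted p of 9.12e-05 in limma. The p38 kinase kinase Map2k6 (-2.79, SE 0.29) and the ERK-activated kinase Rps6ka1 (-2.07, SE 0.23) also fell. Of 19 tested feedback genes, which end MAP kinase signals or degrade the messages, 1 was higher and 3 were lower (21.1% DEGs, median 0.00), a share read against the same 24.3%. None of the 19 was called with normexp correction, the mean intensity without subtraction or the authors' values, beside the same 10.6%, 11.5% and 9.17% of all genes. Slide as a fixed effect called none of them either, and 0 genes in all. The phosphatase Dusp4 was the higher one, with a fitted log2 fold change of 2.37 (SE 0.37). Only 1 WT array was well above background for it. With the detection limit in place of lower WT values the means differed by 1.71, again no firm bound. Dusp10 (-2.56, SE 0.33), Dusp7 (-1.37, SE 0.31) and Dusp6 (-1.15, SE 0.26) were the lower ones. Of the brakes, Dusp1, Dusp2, Dusp5, Dusp6, Zfp36 and Zfp36l1 are in the list of other immediate early genes as well, as is Srf of the activators.

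Around Myc, 12 network genes were tested and 5 of the 17 listed were too dim. Of these 12, 4 were higher and 1 was lower (41.7% DEGs, median 0.57), beside 24.3% of all genes. Max, the partner that Myc needs to bind DNA, rose by 1.13 (SE 0.16), and so did Mnt (1.22, SE 0.14), a repressor that competes with Myc for Max. Mlxip (MondoA), a glucose-sensing factor, rose by 1.42 (SE 0.19), while its relative Mlxipl (ChREBP) fell from 12.17 ± 0.11 (n = 4) to 9.88 ± 0.61 (n = 3), a log2 fold change of -2.29 (SE 0.27). Among 18 tested genes known as Myc targets, 4 were higher and 3 were lower (38.9% DEGs, median 0.39), again beside 24.3%. With the authors' values 4 were called, beside 9.17% of all genes. The nucleolar proteins Ddx21 (1.92, SE 0.28), Nolc1 (1.23, SE 0.19) and Ncl (1.07, SE 0.21) rose. Ccnd2, a cyclin, fell (-1.71, SE 0.22), as did Odc1, the first enzyme of polyamine synthesis (-1.60, SE 0.34), and Eif4e, the cap-binding factor (-1.08, SE 0.19).

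In the family of Btg2, all 4 relatives were tested, 2 were higher and 1 was lower (median 0.20), beside 11.2% and 13.1% of all genes. Btg3 rose by 1.37 (SE 0.18) and Btg1 by 1.32 (SE 0.24), while Tob1 fell (-1.64, SE 0.25). Btg1 and Tob1 are counted among the other immediate early genes as well. The log2 fold change of Btg2 itself, 2.44, was above those of its 4 relatives, which was not tested as a difference.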

How the data were processed

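Quadriceps RNA of 4 WT and 3 AR113Q mice was hybridized to single-dye (Cy3) arrays, and the authors extracted the spots with Agilent Feature Extraction 10.7.3.1. In the deposited scanner files each spot has an intensity from which the software took the background and a spatial trend, with no normalization between arrays, and its mean intensity, local background and detection flags. A further table from the authors gives log2 values of 18592 probes, quantile normalized according to the methods. Columns of sample values left unused number 0.

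Here log2 intensities of 43020 non-control spots per array were quantile normalized, leaving out 94 to 151 outlier spots, and spots of a probe were averaged. Probes had to be measured on all 7 arrays and well above background on 3 or more (20991 probes, 16553 genes), and each gene was read from its kept probe with the highest mean. The comparison of genotypes used limma 3.58.1 (R 4.3.3, lmFit and eBayes). In simulated data for this comparison over 16553 genes with 200 changed, 4 false calls were made, and 31.3%, 73.1% and 93.9% of the genes with a log2 change of 1, 2 and 3 were found. In the data themselves 43.6% of all genes passed the adjusted p, a far larger share than 200 of 16553. These rates therefore need not hold for the data. A log2 change of 1 also lies on the fold change threshold itself. The number of arrays limits the precision. Each array was 1 mouse. The limma p-values set the genotype difference against the spread between arrays of the same genotype, with each gene's variance drawn toward that of all genes. Arrays of a genotype lay mostly on different slides and only slide 2 held both genotypes, so slide differences are part of that spread and of the genotype difference. Names came from RefSeq accessions (28330 probes) and otherwise from the array annotation, and positions are those of the annotation on mm9, for which no gene models were used here. The 10 genes and all lists were chosen with earlier results of these data known. Every probe of the 10 genes is given, and of each list the DEGs with the 3 largest and 3 smallest log2 fold changes. Coordinates of Egr1 and the values of a few other genes are not reported here.

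The fit was repeated with the 75th percentile as scale, normexp correction (offset 50), the mean intensity without subtraction, the authors' values, no filter, a filter on all 7 arrays, the mean over probes, outlier spots kept, an intensity trend, slide as a random or fixed effect, the replicate number as a block, array weights, and each array left out. Applying them to lists and to single probes was added after the data were seen.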

Additional observations from a re-analysis of the deposited data

Results flagged for a closer look

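2 of 55 sets of 4 WT values examined had 1 array far from the other 3, by the gap to the nearest array relative to the whole range, a criterion that chance meets in about 1 in 20 sets. Eif4e read 10.96 on WT replicate 3, against 10.40, 10.38 and 10.43 on the other WT arrays. The summed signal of 5 Schwann cell markers was 3266 on WT replicate 2, against 1565, 1329 and 1240 on the others. Egr1 on WT replicate 4 came close to this criterion, with a gap of 0.824 of the range, and was not past it.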

How the results depend on the processing

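Over 198 alternative values of the 10 genes, 172 kept direction and DEG call, 18 lost the call, 7 gained one and 1 changed sign. The adjusted p alone crossed 0.05 in 31, of which 11 were Fosb, 9 Myc and 5 Jund. The change of sign was in Fos, at 0.90 (adjusted p = 0.479) with slide fixed in the model, where the difference between genotypes rests on the 1 pair of arrays of slide 2. That limma fit called 0 genes in all, hence 0 of the 10, of their probes and of every list. For each gene its spread rests on WT replicates 3 and 4, which share slide 4. With normexp correction, the mean intensity without subtraction and the authors' values, DEGs numbered 1748, 1901 and 1365 against 4027, and 3, 3 and 2 of the 10 genes or of their probes were called. Junb is not in the authors' table. With the authors' values 3 of the 10 had an adjusted p of at most 0.05 against 6. In these 3 settings 7, 7 and 5 upstream activators were called against 11, and 0, 0 and 0 feedback brakes against 4. With the authors' values 5 bZIP factors against 8 and 4 Myc targets against 7 were called. Btg2 and Fosl2 lost the call only with slide as a fixed effect.

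With each array left out, 4 to 6 of the 10 genes (and 4 to 6 probes) were called, 4 to 6 passed the adjusted p, and DEGs numbered 3463 to 4329. The lists gave 17 to 22 other immediate early genes, 8 to 9 bZIP factors, 9 to 12 activators, 4 to 5 brakes, 4 to 6 Myc network genes, 5 to 8 Myc targets and 3 to 4 Btg and Tob genes. Egr1 was called without WT replicate 4 and with the replicate block, Fosb in 5 alternatives.

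Replicate numbers 1 to 3 occur in both genotypes. Deviations of same-numbered arrays correlated at 0.04, -0.02 and 0.16, so the numbers were not taken as pairs. With the replicate block, 3988 genes and 6 of the 10 were called, Egr1 among them at 1.80 (adjusted p = 0.0138), a value equal to that without WT replicate 4, which has no partner. Junb was well above background on only 1 WT array, which limits what its WT level can show, and precision is limited throughout by how few arrays there are.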
